A study of Mus musculus with 8 samples.

Results

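Chemokines and chemokine receptors were followed in peritoneal B-1a cells, innate-like B cells that renew themselves in the body cavities, after loss of PTIP, the product of Paxip1 and a subunit of the histone methyltransferase complexes built on MLL3 and MLL4. The family held the genes whose annotated symbol is Ccl, Cxcl, Ccr or Cxcr with a number, together with Xcl1, Xcr1, Cx3cl1, Cx3cr1, Ccrl2 and the 4 atypical receptors Ackr1 to Ackr4. It comprised 56 of the 22180 genes tested, 22 receptors and 34 ligands, each represented by the probe set with the highest mean over all 8 arrays. A further 33 probe sets that the annotation ties to a family symbol and to other genes at once, those of the Ccl19, Ccl21 and Ccl27 copies, could not be assigned to 1 gene and were not used.

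The mutant pools, labelled KO, came from PTIPflox/flox mice with 1 Cre allele that is active in B lineage cells and recombines the floxed gene there. The control pools, labelled WT, came from PTIP+/+ mice with the same Cre allele, so that both groups carried it. Peritoneal lavage of mice aged 5 weeks gave the sorted cells. The 29 mutant and 22 control mice were divided into 4 pools per genotype, which the labels call biological replicates, and total RNA of each pool was hybridised to 1 Affymetrix array. Values are log2 signals after robust multi-array averaging (RMA), a method that brings arrays towards 1 distribution. The deposited values were not on exactly 1 distribution. The median of an array ran from 3.68 to 3.74, and repeated normalization changed the counts of called genes, as given below. The number of arrays limits the precision. How many mice formed each pool, and of which sex, was not given in the sources used here, and p-values measure the spread between pools.

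Chemokines are small secreted proteins that bind G protein-coupled receptors on leukocytes and direct their movement along gradients. Homeostatic members place lymphocytes in tissues, with Cxcl13 and its receptor Cxcr5 guiding B cells to follicles and, in mice, B-1 cells to the body cavities. Inflammatory members recruit cells to sites of injury or infection. Most atypical receptors bind chemokines without coupling to G proteins, and several of them remove chemokines from the surroundings.

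Sequence before the start of 3 genes is shown because their differences, the fall of Ccr1 and the rises of Xcl1 and Ackr3, passed the test whichever single pool was left out. The 250 bases before the RefSeq start (build GRCm38.p6) are given 5′ to 3′ on the gene's strand, in lower case. Capitals mark any match to 4 motifs searched in each stretch. The first is the TATA box, spelled TATAAA, at which transcription of some genes is positioned. Another is the GC box of Sp1 family factors, with the letters GGGCGG on either strand. The core bound by PU.1, a factor of myeloid and B cells, was searched for with the letters GAGGAA in the same way. The kappaB motif of NF-kB factors was taken as 3 G, any 3 bases, and then the letters TTCC. Both strands were searched, and no match overlapped another in the stretches shown. Ccr1 lies at chr9:123968693-123968942 (minus strand), Xcl1 at chr1:164935523-164935772 (minus strand) and Ackr3 at chr1:90203730-90203979 (plus strand).
Ccr1: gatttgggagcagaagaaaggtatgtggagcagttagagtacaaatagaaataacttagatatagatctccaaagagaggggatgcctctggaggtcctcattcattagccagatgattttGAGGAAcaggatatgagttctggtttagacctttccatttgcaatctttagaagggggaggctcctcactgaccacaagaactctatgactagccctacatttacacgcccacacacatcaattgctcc
Xcl1: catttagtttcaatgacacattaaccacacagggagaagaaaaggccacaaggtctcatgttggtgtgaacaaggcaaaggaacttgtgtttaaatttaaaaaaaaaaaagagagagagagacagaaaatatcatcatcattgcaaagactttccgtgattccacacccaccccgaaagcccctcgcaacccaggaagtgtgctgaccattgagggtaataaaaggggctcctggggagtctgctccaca
Ackr3: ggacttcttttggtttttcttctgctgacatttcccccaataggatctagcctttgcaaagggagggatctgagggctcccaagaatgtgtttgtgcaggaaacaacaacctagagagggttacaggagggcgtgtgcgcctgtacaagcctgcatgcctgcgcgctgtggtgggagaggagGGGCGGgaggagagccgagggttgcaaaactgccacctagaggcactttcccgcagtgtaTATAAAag
The Ccr1 stretch held 1 match to GAGGAA, 129 to 124 bases before the start. The Ackr3 stretch held a match to the GC box and, 8 to 3 bases before the start, a match to TATAAA. Over all listed promoters TATAAA was commonest in the bin at -30 bases from the start, so the Ackr3 match lies closer to it. Whether it acts as a TATA box was not tested. Xcl1 held none of the 4 motifs. Promoters were listed for 42 of the 56 genes, and a kappaB match stood in 18.8% of their 48 stretches, against 4.65% of all 32851 promoters. The TATA box stood in 27.1% against 12.4%, the GC box in 18.8% against 32.7% and GAGGAA in 27.1% against 23.3%. The 9 genes with a kappaB match were Ccl1, Ccl9, Ccl20, Ccr3, Ccr6, Cxcl1, Cxcl2, Cxcl3 and Cxcl10. None of the 9 was called (limma, unadjusted p above 0.05 for each), where 3.59% of all genes were, so that the count is near the background. Of these genes 4 of the 9 had higher means in KO, and their median difference was -0.01 on the log2 scale. A match of letters is a description and shows no binding.

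Paxip1 itself, the targeted gene, stood at 4.66, 4.48, 4.79 and 3.58 in KO pools 1 to 4, against 6.87, 7.13, 7.16 and 7.03 in WT pools 1 to 4. Of 7 B cell markers, Cd79b, Ms4a1 and Cd79a, which encode receptor chains and CD20 of B cells, had means of 11.9, 11.1 and 10.8 and were not called. Cd22, an inhibitory co-receptor of B cells with a mean of 9.83, fell by 0.59 (SE 0.11, limma, adjusted p = 0.0170). The mean of 6 B-1a markers ran from 7.14 to 7.31 in KO pools and from 7.95 to 8.11 in WT pools. Of these, Itgam, Fcrl5, Zbtb32 and Cd9 fell in KO (differences of -1.68, -1.39, -1.11 and -0.60). Cd5, the surface protein that defines the subset among B cells, stood at a mean of 7.46 and differed by 0.04. It was highest in KO pool 1, at 7.71, and the part of T cells in its values was not tested. Bhlhe41, a transcription factor of B-1a cells and the marker of this list with the highest mean, 9.07, differed by -0.02. Itgam and Cd9 are named because of their values, and the part of these falls in the results was not tested. Signal from other cells was present. The 17 T cell markers averaged 6.86, 6.61, 5.04 and 5.51 in KO pools 1 to 4, against 5.27, 5.40, 4.74 and 4.52 in WT pools 1 to 4. For 11 NK cell markers the mean stood at 5.29, 5.05, 4.10 and 4.44 in KO and 4.00, 4.20, 3.84 and 3.51 in WT. Of these markers, 16 of 17 and 11 of 11 had higher means in KO, where 12100 of all 22180 genes did. In limma 0 and 2 were called, against 3.59% of all genes. The 2 were Klrd1 and Klrb1c, named after their values were seen. An unadjusted p under 0.05 (limma) was found for 10 of the T cell markers, against 15.3% of all genes. KO pools 1 and 2 stood apart by both lists, so results that move with them are given without those pools as well. WT pools 1 and 2 likewise lay above WT pools 3 and 4 by both lists, by less. RMA gives no value of 0, so no marker can be called absent. In such bulk samples, fewer cells of a type and less RNA per cell cannot be told apart.

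Of the 56 genes, 5 were called (limma, Benjamini-Hochberg over all genes, adjusted p under 0.05), or 8.93%, against 3.59% of all genes tested. Xcl1 and Ackr3 rose in KO, where 1.49% of all genes rose, and Ccr1, Ccr9 and Ccl4 fell, where 2.1% of all genes fell. Among receptors 3 of 22 were called and among ligands 2 of 34. An unadjusted p under 0.05 was found for 16 of the 56, against 15.3% of all genes. Over all genes 331 rose and 466 fell, while repeated quantile normalization gave 412 and 374. The median difference, KO minus WT on the log2 scale as throughout, was 0.08 over the family and 0.02 over all genes. KO and WT pools did not overlap for 8 of the 56, or 14.3%, against 10.5% of all genes. Differences of at least 1 on the log2 scale, found for 0.676% of all genes, occurred in 4 members: Ccr1, Xcl1, Ccl5 and Ccr2. Family means ran from 2.27 to 9.93, and 31 of the 56 lay below the median of all tested genes, 3.81. Markers of granulocytes, as an example of genes that B cells do not use, had means between 2.37 and 3.32, and 18 of the 56 lay at or below the upper end of that range, none of them called. RMA understates the folds of dim probe sets.

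**Figure D1:**
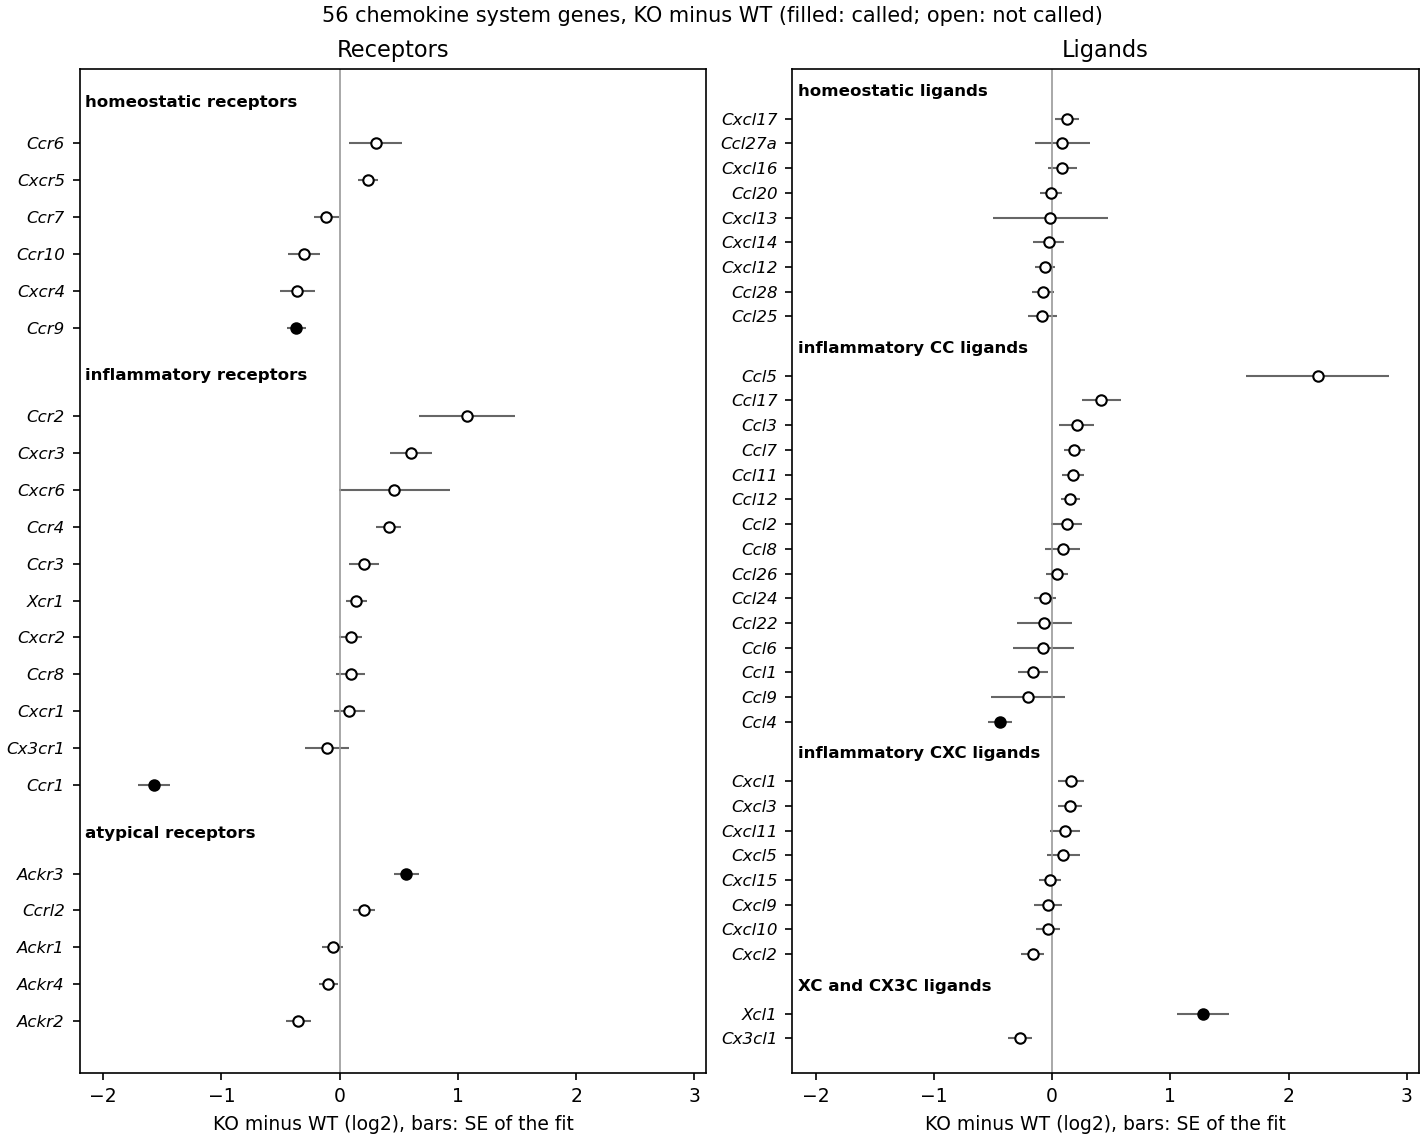
Difference of each of the 56 genes between KO and WT on the log2 scale, grouped by role, with receptors in the left panel and ligands in the right; bars are the standard error (SE) of the fit. Filled points mark the 5 called genes, of which Ccr1 has the lowest difference at -1.57 and Xcl1 the highest at 1.28; the open point of Ccl5 lies further right at 2.24 with an SE of 0.61.

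Ccr1, an inflammatory receptor of monocytes, granulocytes and some lymphocytes for Ccl3, Ccl5, Ccl6, Ccl7 and Ccl9, had the lowest adjusted p of the family. It stood at 3.81, 4.02, 3.41 and 3.71 in KO pools 1 to 4, against 5.54, 5.05, 5.31 and 5.34 in WT pools 1 to 4. Every KO pool lay below every WT pool, by a gap wider than the range of either group. The mean was 3.74 ± 0.25 in KO and 5.31 ± 0.20 in WT (SD, n = 4 pools each), a 2.97-fold fall (difference -1.57, SE 0.14, limma, adjusted p = 0.000149). By exact permutation of the 70 ways to assign the pools, the two-sided p was 0.0286, the smallest that 4 pools against 4 can reach.

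Macrophages also make Ccr1. The mean of 11 macrophage and monocyte markers was 5.09, 4.92, 4.65 and 4.76 in KO pools and 5.52, 4.72, 5.02 and 4.60 in WT pools, so that the groups overlapped. Of these markers 5 of 11 had higher means in KO and 1 was called, where 3.59% of all genes were. The called marker was Cd68, a lysosomal protein, with a fall of 0.56. Adgre1, which encodes F4/80, differed by -0.76 and was not called. Adjusted for the macrophage markers, with their mean as a covariate here as for the other lists, the Ccr1 difference was -1.52 (limma, adjusted p = 0.000229). Adjusted for the T cell markers it was -1.75 (adjusted p = 0.00106), and -1.75 in the fit lacking KO pools 1 and 2 (adjusted p = 0.00133). Over all 23 alternatives it stayed between -1.77 and -1.46 and was called in each.

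None of the measured ligands of Ccr1 was called. Ccl3, Ccl6, Ccl7 and Ccl9 differed by 0.21, -0.07, 0.19 and -0.20 (limma, adjusted p from 0.361 to 0.941), and Ccl5 is described with the T cell and NK markers.

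Ackr3, an atypical receptor that takes up Cxcl12 and in mice marks marginal zone B cells, rose 1.48-fold. It stood at 5.24, 5.03, 5.09 and 5.45 in KO pools 1 to 4, against 4.55, 4.75, 4.57 and 4.70 in WT pools 1 to 4. The groups did not overlap, and the lowest KO pool, 5.03, and the highest WT pool, 4.75, were the nearest. The difference was 0.56 (SE 0.11, limma, adjusted p = 0.0134). Adjusted for the T cell markers, the NK markers, or fitted lacking KO pools 1 and 2, it was 0.59, 0.58 and 0.63, and the call was lost (limma, adjusted p = 0.0915, 0.166 and 0.0573). Its ligand Cxcl12 differed by -0.06 and Cxcl11 by 0.11, neither called.

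Cxcr4, the signalling receptor for Cxcl12, which holds B cells in marrow and follicle niches, went the other way without a call. It stood at 8.38, 8.64, 8.38 and 8.63 in KO pools and 8.43, 8.88, 9.20 and 8.97 in WT pools. The groups overlapped through WT pool 1. The difference was -0.36 (95% interval -0.69 to -0.03, limma, adjusted p = 0.273).

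Ccr9, the receptor for Ccl25 that guides lymphocytes to thymus and small intestine, had a small and even fall. It stood at 4.33, 4.44, 4.25 and 4.24 in KO pools, against 4.65, 4.66, 4.68 and 4.72 in WT pools. All WT pools lay within a narrow band above the KO pools. The difference of -0.37 had an SE of 0.08 (limma, adjusted p = 0.0296). The call was lost whenever a pool other than KO pool 2 was left out (adjusted p up to 0.0842), and also with the T cell marker mean in the fit, where the difference was -0.42 (adjusted p = 0.106). Its ligand Ccl25 differed by -0.08 and was not called.

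**Figure D2:**
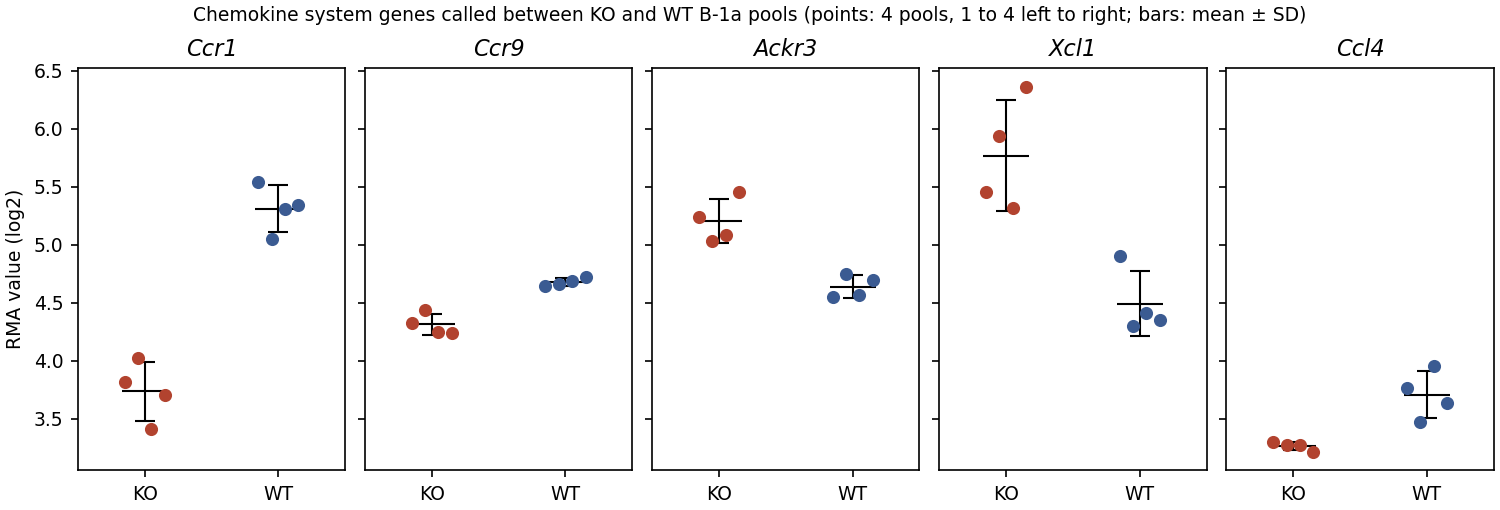
RMA values (log2) of the 5 called genes in 4 KO pools and 4 WT pools, drawn on a shared axis; points are pools 1 to 4 from left to right, and bars give the mean ± SD. KO pools lie below WT pools for Ccr1, Ccr9 and Ccl4 and above them for Ackr3 and Xcl1, with no overlap in any of the 5.

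The remaining homeostatic receptors were not called. Cxcr5, the receptor for Cxcl13, stood at 9.89, 10.03, 10.13 and 10.14 in KO pools and 9.77, 9.81, 9.80 and 9.87 in WT pools. Its KO pools lay above all WT pools, yet the difference of 0.24 (95% interval 0.05 to 0.42) was not called (limma, adjusted p = 0.188). Ccr7, which draws lymphocytes to T cell zones, stood at 7.17, 7.30, 7.04 and 7.25 in KO pools and 7.50, 7.14, 7.19 and 7.39 in WT pools. These overlapped, with a difference of -0.11 (95% interval -0.34 to 0.11). Ccr6, the Ccl20 receptor of mature B cells, stood at 6.51, 6.75, 6.96 and 7.01 in KO pools and 6.41, 7.27, 6.21 and 6.12 in WT pools. WT pool 2 was above every KO pool, and the difference was 0.30 (95% interval -0.19 to 0.79). Ccr10, a receptor of antibody-secreting cells, was dim in both groups, at 2.74 and 3.04 in KO and WT. Over the 6 homeostatic receptors the median difference was -0.21, with 1 called.

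Among atypical receptors only Ackr3 passed the test. Ackr2, which degrades inflammatory CC chemokines and in mice is made by innate-like B cells, stood at 6.03, 6.11, 6.39 and 6.44 in KO pools and 6.55, 6.66, 6.61 and 6.54 in WT pools. The groups did not overlap, with KO pools 1 and 2 lowest, and the difference of -0.35 (SE 0.10) was not called (limma, adjusted p = 0.110). Ccrl2, which presents the chemoattractant chemerin, differed by 0.21, Ackr4 by -0.10 and Ackr1 by -0.06, none of them called.

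Xcl1, or lymphotactin, a chemokine released by NK cells and CD8 T cells that attracts cross-presenting dendritic cells, rose 2.42-fold. It stood at 5.45, 5.94, 5.31 and 6.36 in KO pools 1 to 4, against 4.91, 4.30, 4.41 and 4.35 in WT pools 1 to 4. The highest value was that of KO pool 4, and the groups did not overlap. The difference was 1.28 (SE 0.22, limma, adjusted p = 0.00835). Adjusted for the T cell markers, the NK markers, or fitted lacking KO pools 1 and 2, it was 1.24, 1.25 and 1.35. The call was lost in these 3 fits (limma, adjusted p = 0.0849, 0.147 and 0.0542), whose SEs were 0.30, 0.33 and 0.27. Beyond these fits the part of T cells or NK cells in the Xcl1 values was not tested. Its receptor Xcr1 differed by 0.14 and was not called.

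Ccl4, a CC chemokine released by activated lymphocytes and macrophages, fell by 0.44 (SE 0.10, limma, adjusted p = 0.0417). It stood at 3.30, 3.28, 3.27 and 3.22 in KO pools, against 3.76, 3.47, 3.95 and 3.64 in WT pools. Both means lay below that of the median gene. The call was lost without any 1 pool but WT pool 2 (adjusted p up to 0.104). With arrays centred on their median it was also lost, at a difference of -0.42 (limma, adjusted p = 0.0560). Of 22 alternatives, 6 called Ccl4. Ccl3, its close paralog and neighbour, differed by 0.21 in the opposite direction and was not called.

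Several genes known from T cells and NK cells were not called and varied between pools. Ccl5, made in quantity by T cells and NK cells, stood at 11.19, 11.01, 8.82 and 10.06 in KO pools 1 to 4, against 8.97, 9.17, 7.14 and 6.81 in WT pools 1 to 4. KO pool 3 lay below WT pools 1 and 2. Its difference of 2.24 (SE 0.61) had an adjusted p of 0.0760 in limma. It was 0.69 adjusted for the T cell markers and 0.31 for the NK markers. Adjusted for the macrophage markers it was 2.46 and called (adjusted p = 0.0393). Without KO pool 3 it was 2.73 and called (limma, adjusted p = 0.0258).

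Ccr2, the Ccl2 receptor of monocytes and memory T cells, stood at 6.83, 6.40, 4.75 and 5.12 in KO pools and 5.02, 5.03, 4.58 and 4.16 in WT pools. KO pools 1 and 2 were high and the other KO pools lay near the WT range. The difference of 1.07 was not called (SE 0.41, limma, adjusted p = 0.223). It was -0.06 adjusted for the T cell markers and 0.23 in the fit lacking KO pools 1 and 2.

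Cxcr6, the Cxcl16 receptor of T cells and NKT cells, stood at 6.65, 6.44, 4.05 and 5.12 in KO pools and 5.23, 5.40, 4.74 and 5.04 in WT pools. The highest and the lowest values both came from KO pools. The difference was 0.46 over all pools, -0.78 adjusted for the T cell markers and -0.52 in the fit lacking KO pools 1 and 2, none of them called.

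Cxcr3, the receptor of activated T cells for the interferon-induced ligands Cxcl9, Cxcl10 and Cxcl11, stood at 5.40, 5.28, 4.45 and 4.98 in KO pools and 4.39, 4.60, 4.31 and 4.42 in WT pools. KO pool 3 overlapped with the WT pools. Its difference of 0.60 (SE 0.18, limma, adjusted p = 0.108) was 0.18 adjusted for the T cell markers, and without KO pool 3 it was 0.79 and called (adjusted p = 0.00684). The ligands Cxcl9 and Cxcl10 differed by -0.03 and -0.04. The part of T cells or NK cells in the values of Ccl5, Ccr2, Cxcr6 and Cxcr3 was not tested beyond these fits.

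Ccr4, the receptor of T cells for Ccl17 and Ccl22, was dim, at 3.02, 2.81, 2.54 and 2.81 in KO pools and 2.28, 2.37, 2.45 and 2.44 in WT pools. The groups did not overlap, and the difference of 0.41 was not called (SE 0.11, limma, adjusted p = 0.0600). It was 0.28 adjusted for the T cell markers, and without KO pool 3 it was called (adjusted p = 0.0192). Ccl17, a ligand of Ccr4 made by activated dendritic cells and B cells, differed by 0.41 (adjusted p = 0.253) and Ccl22 by -0.07, neither called.

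**Figure D3:**
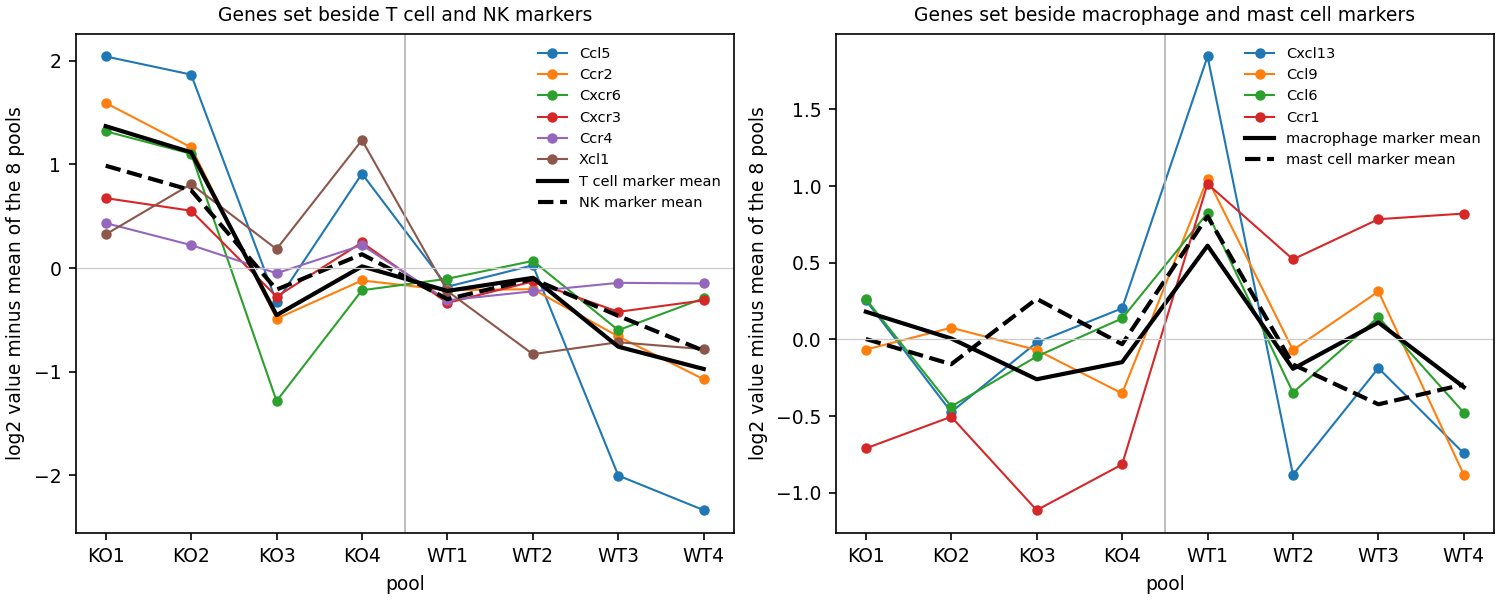
Values of single genes (coloured) and means of marker lists (black) in each of the 8 pools, each drawn as the log2 value minus its own mean over the 8 pools. On the left, Ccl5, Ccr2, Cxcr6 and Cxcr3 are highest in KO pools 1 and 2 with the T cell and NK marker means. Ccr4 is highest in KO pool 1, with KO pools 2 and 4 about level, and Xcl1 is highest in KO pool 4. On the right, Cxcl13, Ccl9 and Ccl6 are highest in WT pool 1, as are the macrophage and mast cell marker means. Ccr1 is lower in all KO pools.

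Cxcl13, the B cell attractant that peritoneal macrophages secrete in mice, stood at 5.70, 4.97, 5.42 and 5.64 in KO pools 1 to 4, against 7.29, 4.56, 5.25 and 4.70 in WT pools 1 to 4. WT pool 1 was far above the other 7 pools. The difference was -0.02 (95% interval -1.09 to 1.05), and without WT pool 1 it was 0.60 (SE 0.20, limma, adjusted p = 0.204). Ccl9 and Ccl6, CC chemokines of macrophages, were also highest in WT pool 1, at 6.47 and 4.49, against 5.07 to 5.49 and 3.23 to 3.93 in the KO pools. Their differences of -0.20 and -0.07 were 0.11 and 0.19 without that pool, none of them called. The means of macrophage and of mast cell markers were highest in the same pool, at 5.52 and 4.26; the part of such cells in these values was not tested.

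The other ligands gave no call. The 8 inflammatory CXC ligands, Cxcl1 to Cxcl3, Cxcl5, Cxcl9 to Cxcl11 and Cxcl15, all had means below the median gene and differences between -0.16 and 0.16. The 9 homeostatic ligands differed by -0.08 to 0.13, and their median difference was -0.02. Cx3cl1, a membrane-bound chemokine, was dim and differed by -0.27 (limma, adjusted p = 0.232), and its receptor Cx3cr1, which marks patrolling monocytes, differed by -0.11, with KO pool 1 at 5.92 above all other pools.

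The genes fall into clusters on the chromosomes, 14 on chromosome 11, 13 on chromosome 9 and 11 on chromosome 5, by the RefSeq gene table of GRCm38.p6. The called genes did not form a run. On chromosome 9 the coding genes around Ccr9 and Ccr1 follow each other as Lztfl1, Ccr9, Fyco1, Cxcr6, Xcr1, Ccr1, Ccr1l1, Ccr3 and Ccr2. Lztfl1, a ciliary transport gene next to Ccr9, fell by 0.88 (SE 0.07, limma, adjusted p = 0.000101), whereas Fyco1, Cxcr6, Xcr1, Ccr1l1 and Ccr3 between and beside the called receptors differed by -0.26, 0.46, 0.14, 0.01 and 0.20 and were not called. On chromosome 11 Ccl4 lies between Ccl3, not called, and Wfdc17, a small secreted protein gene that fell by 1.92 (SE 0.35, limma, adjusted p = 0.0120), and Heatr6, the 4th coding gene beyond Ccl4, fell by 0.38. Within 4 coding genes of Xcl1 and of Ackr3 on chromosome 1, no other measured gene was called.

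**Figure D4:**
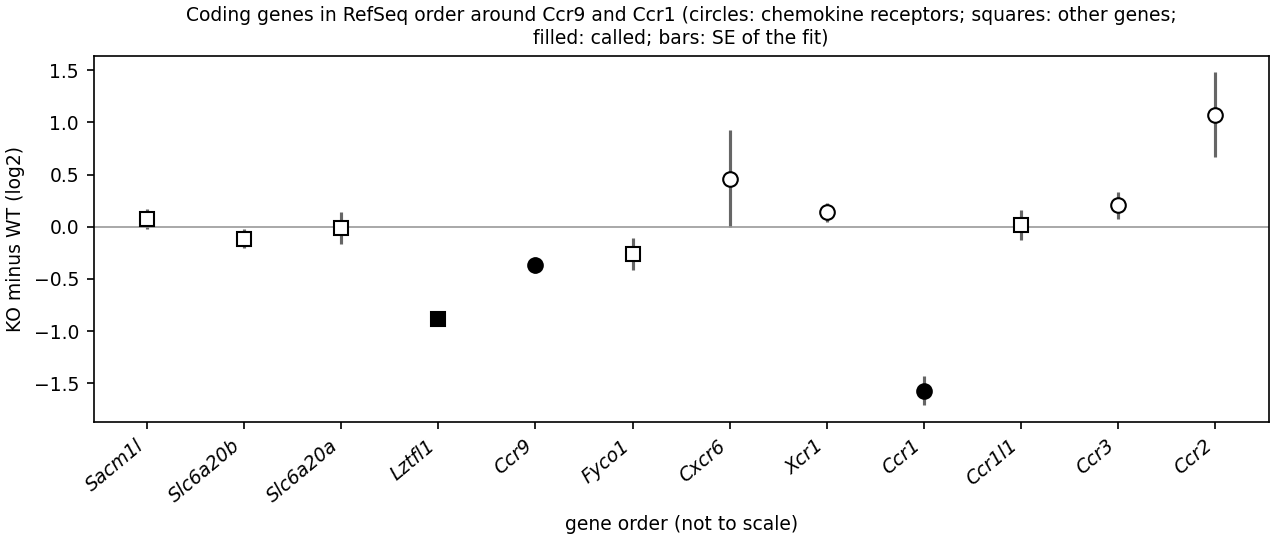
Difference between KO and WT (log2, bars: SE of the fit) of 12 neighbouring coding genes of chromosome 9 in RefSeq order, not to scale. Circles are receptors of the family as defined here, squares other genes, Ccr1l1 among them, and filled symbols called genes. Lztfl1, Ccr9 and Ccr1 lie below 0 and are called, with uncalled genes between Ccr9 and Ccr1.

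Downstream of the receptors, 54 genes of G protein signalling and related chemoattractant receptors were measured. They came from a list of 61 symbols, which holds some genes under an old and a new name. Of the 54 genes 5 rose and 3 fell, or 14.8% against 3.59% of all genes. The list was chosen with earlier results of these data known, so this share gives no independent support. It also held brighter genes than the background. Of the 54, 12 lay below the median gene, against 11090 of all 22180. Over the 54 the median difference was 0.05, against 0.02 over all genes. Of 9 measured RGS regulators, which speed the shut-off of G proteins, 3 were called. These were Rgs18, Rgs13 and Rgs2, which rose by 2.09, 2.07 and 1.19. All 3 lie on chromosome 1, as do Rgs1 and Rgs16, which were not called. Pik3cg, the lipid kinase subunit that G protein beta-gamma subunits activate, stood at 6.84, 7.08, 6.92 and 7.11 in KO pools against 6.15, 5.55, 5.89 and 5.86 in WT pools, and rose by 1.12 (SE 0.12, limma, adjusted p = 0.000589). Ptk2b, a kinase of adhesion and migration, rose by 0.47 (SE 0.09, limma, adjusted p = 0.0178), and its call was lost without KO pool 1, KO pool 2 or WT pool 3 (adjusted p up to 0.0583). It was also lost adjusted for the T cell or NK markers and in the fit lacking KO pools 1 and 2 (limma, adjusted p = 0.146, 0.226 and 0.160).

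Grk5, which phosphorylates active receptors and so ends their signal, stood at 5.12, 5.61, 5.23 and 5.58 in KO pools against 6.77, 6.36, 6.60 and 6.73 in WT pools. All KO pools lay below all WT pools, and the fall was 1.23 (SE 0.13, limma, adjusted p = 0.000532). The oxysterol receptor Gpr183 fell by 0.94 (SE 0.16, limma, adjusted p = 0.00869). Ptafr, the receptor for platelet-activating factor, fell by 0.69 (SE 0.12, limma, adjusted p = 0.0109). Its call was lost adjusted for the T cell or NK markers and in the fit lacking KO pools 1 and 2 (limma, adjusted p = 0.126, 0.195 and 0.122). Without moderation of the variance, Ptafr, Gpr183, Ptk2b, Rgs2 and Rgs18 lost their calls (adjusted p from 0.0585 to 0.0976). The 12 measured G protein subunits gave no call (1 with an unadjusted p under 0.05 in limma, Gng2), with differences between -0.12 and 0.27. Among all genes 3.59% were called and 15.3% had such a p, so that these small counts are near the background.

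**Figure D5:**
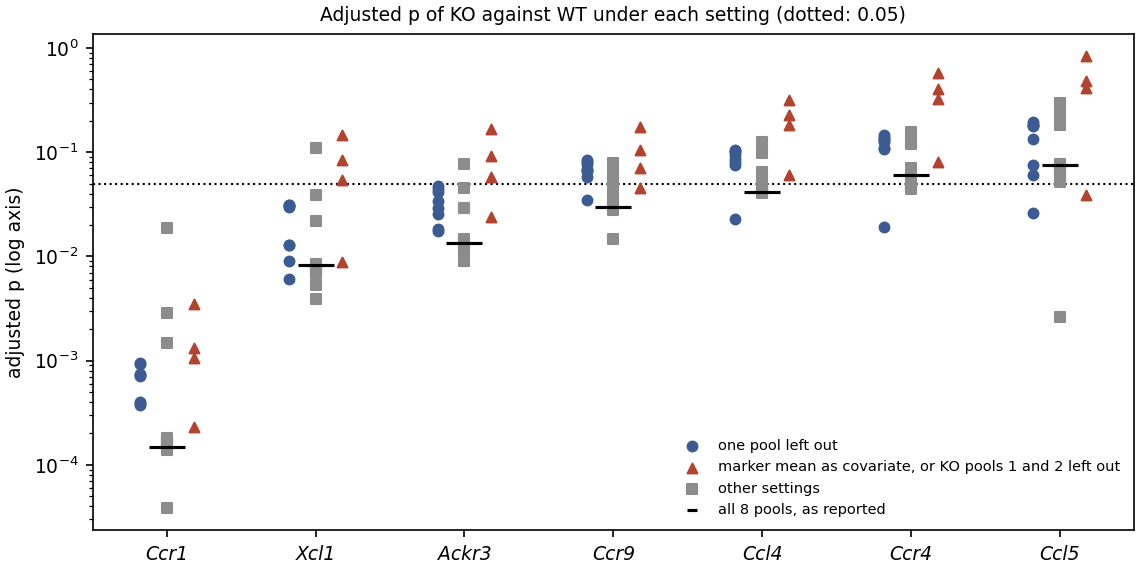
Adjusted p of KO against WT in limma for 7 genes of the family under each setting, on a log axis, with the value over all 8 pools as a black bar and the threshold of 0.05 dotted. All points of Ccr1 lie below the threshold; those of Xcl1 and Ackr3 cross it only in fits with a marker mean as a covariate, without KO pools 1 and 2 or among the other settings, while those of Ccr9, Ccl4, Ccr4 and Ccl5 lie on both sides when 1 pool is left out.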

How the data were processed

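Per the submitters' processing notes, the authors made the deposited log2 values with RMA in R 3.2.2; the package, probe set annotation and scan dates were not given in the sources used here. 1 table holds 41345 probe sets on 8 arrays, in 4 KO and 4 WT pools. Of 25335 probe sets in the platform annotation, 23521 had 1 gene symbol and 1814 several, which were not used; 16010 were not listed. The probe set with the highest mean was kept per gene.

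KO was compared with WT with limma 3.58.1 in R 4.3.3 (lmFit, eBayes, two-sided, Benjamini-Hochberg over all 22180 genes, adjusted p under 0.05), tested on simulated data. The members and lists were chosen with earlier results of these data known. Named with full statistics were Paxip1, called members, members differing by at least 1, the 10 members with the highest mean signal, and at most 12 called signalling genes; others are named by role. At most the 4 markers of each list with the highest mean were to be named, and genes beside called members by their position. Alternatives changed probe set choice, genes tested, scaling, variance prior, array weights, threshold and a replicate block, used a marker mean as a covariate, and left out pools; the NK and macrophage marker covariates were chosen after seeing the data. Sequences come from RefSeq promoters of GRCm38.p6.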

Additional observations from a re-analysis of the deposited data

Results flagged for a closer look

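Each family gene, and a few other genes named with full statistics, was checked in each group for a pool far from the other 3. Not every other gene described was checked, and 112 of the 130 groups were those of family genes. The gap to the nearest pool, divided by the range of the group, was above the 95% critical value of Dixon's test in 4 of 130 groups; chance gives about 1 in 20. For Ccl26 KO pool 3 was low, at 2.71 against 2.88 to 2.92 in the other KO pools. For Cxcl1 WT pool 2 was high, at 3.21 against 2.77 to 2.82 in the other WT pools. Both genes were dim and not called. Among the signalling genes, Gpr183 was high in WT pool 2, at 9.27 against 8.83 to 8.88, and Rgs13 was low in WT pool 3, at 3.04 against 3.25 in the other WT pools; without these pools both kept their calls in limma.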

How the results depend on the processing

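Of 1258 results for single family members under the alternatives, 1187 kept their side of the threshold or moved by less than the spread between pools, 40 lost a call, 11 gained one, 20 moved without a call, and none of the called ones changed sign. The 2 rises in the family became 0 without moderation of the variance, 0 with the T cell marker mean or the NK marker mean as a covariate, 0 without KO pools 1 and 2, 1 at an adjusted p under 0.01 and 4 under 0.1, and 2 to 5 when 1 pool was left out. The 3 falls became 1 with every probe set tested, with the T cell or NK marker mean as a covariate, without KO pools 1 and 2 and at an adjusted p under 0.01, and 1 to 2 when 1 pool was left out. Over all genes the 331 rises and 466 falls became 127 and 176 without moderation, 151 and 159 with the T cell and 80 and 99 with the NK marker mean, 137 and 183 without KO pools 1 and 2, 123 and 188 at an adjusted p under 0.01, 533 rises at 0.1, and 196 to 296 and 274 to 462 when 1 pool was left out. Repeated quantile normalization gave 412 rises and 374 falls, or 52.4% rises against 41.5%. In the signalling list the 5 rises and 3 falls became 2 and 1 without moderation, and 4 to 5 and 3 to 4 when 1 pool was left out. Same-numbered pools deviated together weakly over all genes (r = 0.04 to 0.11), against r from -0.12 to 0.10 between pools of different numbers. The numbers were not taken to pair the pools, and whether they share a batch was not tested. With the replicate number as a block the family had 4 rises and 1 fall. Ccl5 (adjusted p in limma = 0.00261) and Ccr2 (0.0468) were then called, and Ccr9 and Ccl4 were not. The SE of Ccl5 was 0.23 with the block and 0.61 without it, and that of Ccr2 0.23 and 0.41. The causes of these changes were not tested. With only 4 pools per genotype and no detection calls, small changes of dim genes could not be resolved.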
